A study of Mus musculus with 2 samples.

Results

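The let-7 genes that lie outside the miR-99/let-7/miR-125 clusters form a set of 9 of the 2202 microRNA genes in the annotation. They are Mirlet7g, Mirlet7i, Mirlet7b, Mirlet7c-2, Mirlet7d, Mirlet7a-1, Mirlet7f-1, Mirlet7f-2 and Mir98, and they were chosen by gene symbol and by position, with no measured value in the rule. The remaining 3 genes with let-7 symbols, Mirlet7a-2, Mirlet7c-1 and Mirlet7e, each sit beside a miR-99/100 or miR-125 gene. The measurements are microRNA sequencing counts from the left cerebral cortex of male mice of the strain labelled B6CASTF1/J, hybrids of C57BL/6J and CAST parents, at 36 days of age, and the labels name no treatment. There are 2 libraries of 1 group. Replicate 1 comes from the animal numbered 3 and replicate 2 from the animal numbered 4, under a shared donor identifier. Following those numbers they are treated as distinct animals, and p-values measure counting error alone, not how animals vary.

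The let-7 microRNAs are a deeply conserved family that restrains proliferation and pluripotency genes and accumulates as cells differentiate, also in brain, where mature neurons hold high levels. A hairpin is cut from a primary transcript by Drosha and then by Dicer, and the arm called 5p is the usual guide strand. A guide finds its targets mainly through its seed, bases 2 to 8. The RNA-binding protein LIN28 blocks this maturation in stem and progenitor cells by binding the stretch between the arms of let-7 precursors, where its zinc knuckles recognise GGAG.

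The 9 hairpins encode 8 different 5p sequences, which are shown because they decide both what the family shares and which loci can be told apart. All 9 genes matched the RefSeq microRNA table (GRCm38.p6), and their hairpins were identical to those of GENCODE M21. Capitals mark the seed.
let-7a-5p: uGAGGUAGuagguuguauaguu
let-7f-5p: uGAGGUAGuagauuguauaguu
let-7c-5p: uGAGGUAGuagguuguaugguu
let-7b-5p: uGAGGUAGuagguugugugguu
let-7d-5p: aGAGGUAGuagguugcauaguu
let-7g-5p: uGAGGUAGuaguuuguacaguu
let-7i-5p: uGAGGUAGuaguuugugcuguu
miR-98-5p: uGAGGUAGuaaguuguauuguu

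All 8 carry the seed GAGGUAG, which is held by 11 of the 1674 distinct mature sequences in that table. Counted from 1 at the 5′ end, with the base of let-7a first, let-7f has G12A, let-7c has A19G, let-7b has A17G and A19G, and let-7d has U1A and U16C. In the same notation let-7g has G12U and U18C, let-7i has G12U, A17G, U18C and A19U, and miR-98 has G11A and A19U. No substitution falls in the seed. With let-7e, which has U9G, there are 36 pairs of 5p sequences. Of these pairs, 4 differ at 1 base and 10 at 2 bases, and the most distant pair, let-7d and let-7i, differs at 6.

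Of the 9 genes, 5 have a 5p sequence found in no other microRNA hairpin of the annotation, namely Mirlet7g, Mirlet7i, Mirlet7b, Mirlet7d and Mir98. The other 4 share theirs with 1 other locus each. The 5p sequence of Mirlet7a-1 recurs in Mirlet7a-2, that of Mirlet7c-2 in Mirlet7c-1, and Mirlet7f-1 and Mirlet7f-2 hold the same one. The hairpins of such loci are printed through the first bases past this arm, where they diverge, with the 3 bases that follow it in capitals.
Mirlet7a-1: ugagguaguagguuguauaguuUUA
Mirlet7a-2: ugagguaguagguuguauaguuUAG
Mirlet7c-2: ugagguaguagguuguaugguuUUG
Mirlet7c-1: ugagguaguagguuguaugguuUAG
Mirlet7f-1: ugagguaguagauuguauaguuGUG
Mirlet7f-2: ugagguaguagauuguauaguuUUA

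Among annotated hairpins, an exact let-7f 5p read therefore fits only 1 locus once it extends 1 templated base past the annotated end. Reads of let-7a and let-7c need 2. The rest of the genome was not searched. The 3p arms of Mirlet7f-1 and Mirlet7f-2 occur in no other annotated microRNA hairpin. The 3p arm of Mirlet7a-1 is identical to that of Mirlet7c-2, so these genes share both arms with another locus. The shared 3p arm, with its seed in capitals, is printed because it links the a and c loci.
let-7a-1-3p and let-7c-2-3p: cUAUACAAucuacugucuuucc

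The 3p seeds were less uniform than the 5p seed. UAUACAA was carried by 5 of the 9 genes (Mirlet7b, Mir98, Mirlet7c-2, Mirlet7a-1 and Mirlet7f-1), and each of the other 4 genes had a 3p seed of its own.

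In the genome (mm10, GENCODE M21) 2 of the genes stand alone and 7 lie in 3 clusters. Mirlet7g (chr9:106178840-106178927, plus strand) lies in an intron of Wdr82, a subunit of histone methyltransferase complexes. Mirlet7i (chr10:122985640-122985724, minus strand) overlaps an exon of the pseudogene D630033A02Rik. On chromosome 13, within 2261 bases of the minus strand, Mirlet7a-1 (chr13:48538179-48538272), Mirlet7f-1 (chr13:48537829-48537917) and Mirlet7d (chr13:48536012-48536114) overlap exons of the long noncoding RNA 6720427I07Rik. On chromosome 15, within 801 bases of the plus strand, Mirlet7c-2 (chr15:85706603-85706697) and Mirlet7b (chr15:85707319-85707403) overlap exons of the noncoding transcript Lncppara. On the X chromosome, within 976 bases of the plus strand, Mirlet7f-2 (chrX:151912346-151912428) and Mir98 (chrX:151913214-151913321) lie in an intron of Huwe1, a ubiquitin ligase. The only other annotated microRNA gene within 10 kb of any of them is Gm24111, on the opposite strand over Mirlet7f-1, with 4 and 2 counts.

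The libraries held 4273791 and 4010274 counts on the genes' own strand in replicates 1 and 2, and levels are given as CPM, these counts scaled to sum to 1000000 in each library. A count of 0 would allow up to 0.702 and 0.748 CPM (3 counts, covering counting error only). Multi-mapped reads, which the tables hold outside the gene counts, came to 42.8% and 39.9% of all reads, or 4.73 and 3.63 for each read counted at the 9 genes. How many of them belong to let-7 was not measured, and gene levels are therefore levels of singly assigned reads. Counts are per hairpin gene and do not separate reads of the 5p arm from those of the 3p arm. Markers of cell types found in cortex ranged widely. The 4 neuronal markers summed to 79083 and 48391 CPM, and endothelial Mir126a had 11394 and 10799 CPM. The 2 oligodendrocyte markers summed to 5092 and 3534 CPM and the 2 mural markers to 5178 and 7691 CPM. The 3 markers of leukocytes and microglia summed to 2123 and 1950 CPM, with the lowest value in each library at 16.4 and 0.499 CPM. Of the markers of other tissues, the 5 epithelial markers summed to 138 and 386 CPM, the 2 red-cell markers to 56.9 and 771 CPM, and the 3 of striated muscle to 27.1 and 18.2 CPM with Mir1a-1 at 0 in both libraries, and Mir122 of liver had 47.5 and 79.8 CPM.

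Together the 9 genes took 25.2% of the own-strand counts in replicate 1 and 31.6% in replicate 2 (28.4% ± 4.55, SD, n = 2). Nearly all of this came from 4 genes, Mirlet7g, Mirlet7b, Mirlet7i and Mirlet7d, which are 4 of the 10 genes with the highest mean CPM in the tables. They alone made up 24.2% and 30.6% of the own-strand counts.

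Mirlet7g had 82952 CPM in replicate 1 and 110761 in replicate 2 (354520 and 444182 counts). It was the second gene of all in replicate 1 and the first in replicate 2. Mirlet7b had 69867 and 69188 CPM, a nearly level pair of values. Mirlet7i had 53928 and 78810 CPM, so that it lay below Mirlet7b in replicate 1 and above it in replicate 2. Mirlet7d, whose 5p sequence is the only one of the family to begin with A, had 35382 and 47302 CPM. Below these came a gap. Mir98, the member named outside the let-7 series, had 3806 and 4929 CPM, and Mirlet7d exceeded it 9.30-fold and 9.60-fold in the respective libraries.

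The genes with a shared 5p sequence were all lower. Mirlet7f-2 had 3457 and 2867 CPM, next below Mir98. Mirlet7c-2 had 1774 and 1611 CPM and Mirlet7a-1 458 and 448 CPM. Mirlet7f-1 was the lowest of the 9 with 190 and 243 CPM (814 and 973 counts), still far above the level that a count of 0 allows. In the order of mean levels only Mirlet7b and Mirlet7i, next to each other, had ranges over the libraries that overlapped, and the ranges of the other 7 neighbouring pairs did not. The narrowest of these separations was between Mir98, with 3806 CPM in its lower library, and Mirlet7f-2, with 3457 CPM in its higher one. Scaling by hairpin length, from 83 to 108 bases, left the order of the 9 means as it was.

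**Figure D1:**
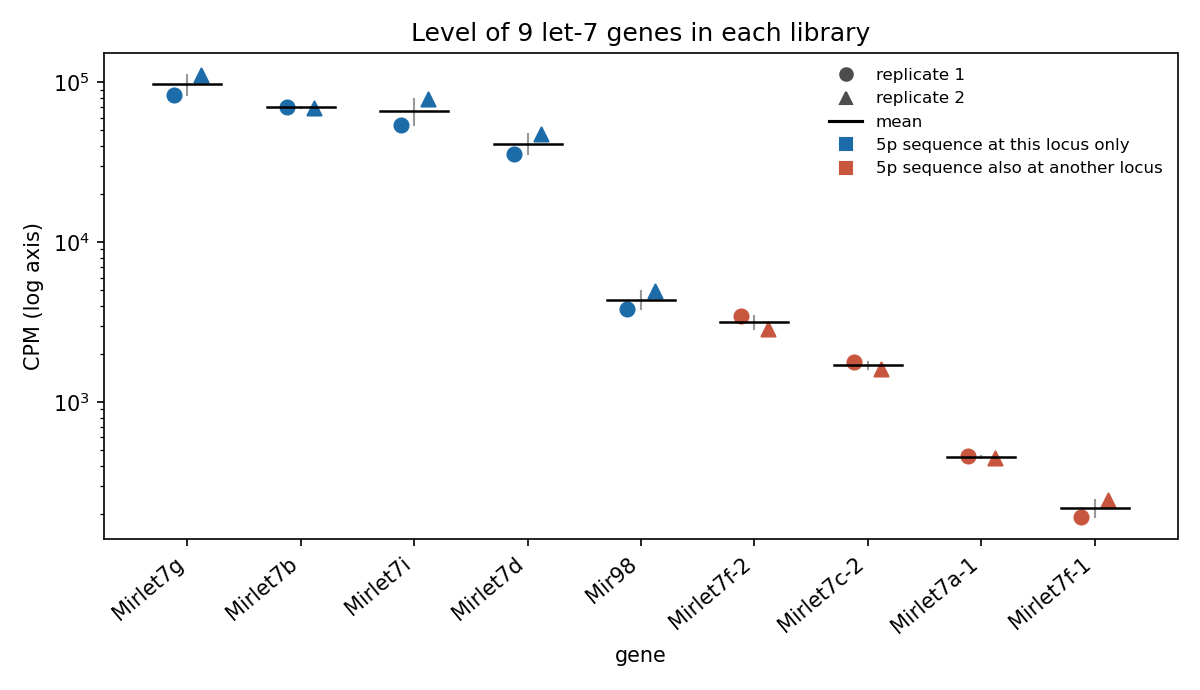
CPM (log axis) of the 9 let-7 genes, ordered by mean, with a circle for replicate 1, a triangle for replicate 2, a bar for the mean, and colour for whether the 5p sequence occurs at another locus. The 5 genes with a sequence of their own lie between 3806 and 110761 CPM and the 4 others between 190 and 3457 CPM.

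Loci were then compared by whether their 5p sequence recurs elsewhere, since the tables keep reads that fit several places outside the gene counts. For the 5 genes with an own sequence the median CPM was 53928 in replicate 1 and 69188 in replicate 2. The 4 with a shared sequence had medians of 1116 and 1030 CPM, lower by factors of 48.3 and 67.2. In each library the lowest own-sequence gene, Mir98, was above the highest shared-sequence gene, Mirlet7f-2, by factors of 1.10 and 1.72, so the separation of the classes was narrow at that point and wide elsewhere. The shared-sequence genes summed to 0.588% and 0.517% of the own-strand counts, against 24.6% and 31.1% for the own-sequence genes. Loci are not replicates, and the members were chosen with earlier results of these data known, so no test was made of this difference. When a gene counts as shared only if both of its arms recur elsewhere, the shared class is Mirlet7a-1 and Mirlet7c-2, and the classes overlap because Mirlet7f-1 lies below both.

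The 3 let-7 genes of the miR-99/miR-125 clusters fell on either side in the same way. Mirlet7e, with a 5p sequence of its own, had 30268 and 34522 CPM. Mirlet7a-2 and Mirlet7c-1, whose sequences recur in Mirlet7a-1 and Mirlet7c-2, had 126 and 234 CPM and 419 and 562 CPM. The singly assigned reads of both loci of a shared sequence, of either arm, summed to 584 and 683 CPM for the let-7a genes. The sums were 2193 and 2173 CPM for the let-7c genes. For the let-7f genes they were 3648 and 3110 CPM, close to Mir98 in replicate 1. Reads that fit both loci are outside these sums too, so they are not amounts of the mature 5p sequences. A further pair of annotated genes has mature sequences named let-7 and is not among the 9. Mir7j, the gene of let-7j, had 83 and 93 counts, and Mir7k, the gene of let-7k, had 1 and 2.

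Genes of a cluster are often cut from a single primary transcript, so ratios inside a cluster compare loci that may share their transcription. On chromosome 13 Mirlet7d had 77.3 counts for each count of Mirlet7a-1 in replicate 1 (exact 95% binomial interval 73.9 to 80.8) and 106 in replicate 2 (101 to 111). Over Mirlet7f-1 the ratio was 186 (173 to 199) and 195 (183 to 208). On chromosome 15 Mirlet7b had 39.4 counts for each of Mirlet7c-2 (38.5 to 40.3) and then 43.0 (41.9 to 44.0). The X-linked pair was far closer, with 1.10 counts of Mir98 for each of Mirlet7f-2 (1.08 to 1.13) in replicate 1 and 1.72 (1.68 to 1.76) in replicate 2.

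Within all 3 clusters the own-sequence gene was the higher and was also the last hairpin on the transcribed strand. Position in the cluster and sharing of the sequence therefore cannot be told apart there. These intervals cover counting error only.

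**Figure D2:**
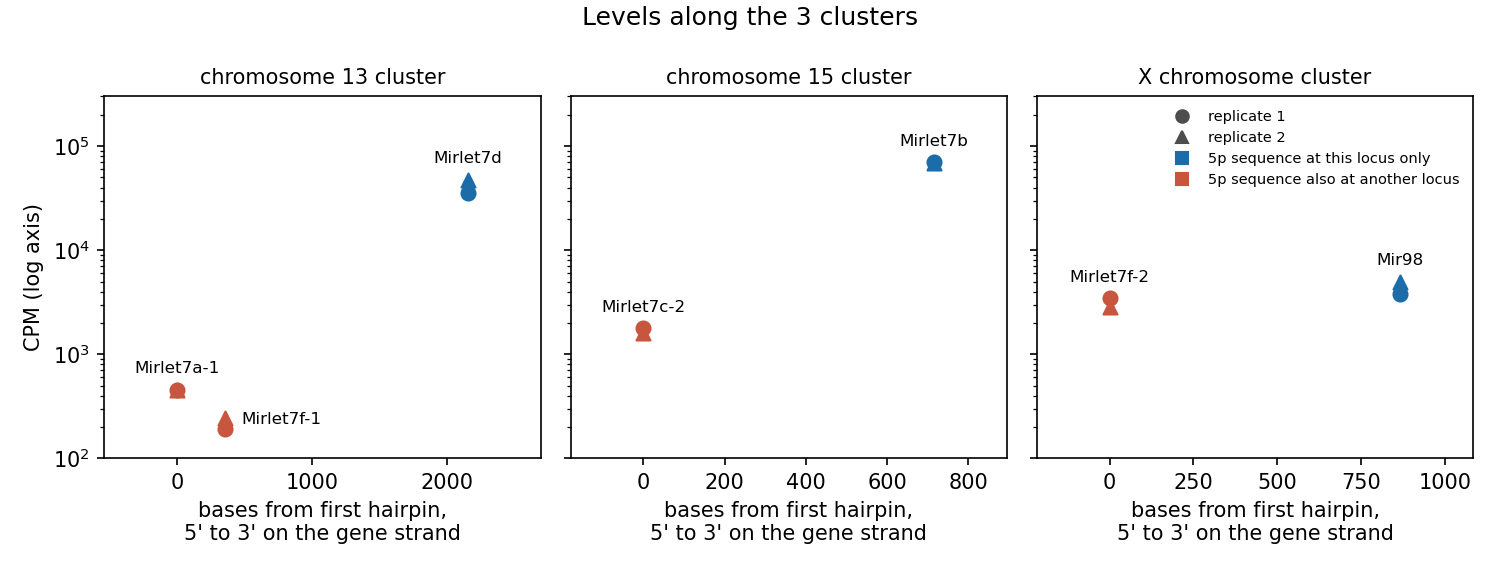
CPM (log axis) against distance in bases from the first hairpin of each of the 3 clusters, 5′ to 3′ on the gene strand, with a circle for replicate 1, a triangle for replicate 2, and colour for whether the 5p sequence occurs at another locus. Mirlet7d and Mirlet7b stand far above their neighbours, while Mir98 and Mirlet7f-2 differ by 1.10-fold and 1.72-fold.

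Shares within the 9 genes show the make-up of their singly assigned reads without any scaling between libraries. Reads that fit several loci are outside these shares, so the amounts of let-7a, let-7c and let-7f cannot be read from them. Mirlet7g gave 32.9% of the singly assigned reads in replicate 1 and 35.03% in replicate 2. Mirlet7b gave 27.7% and 21.9%, and Mirlet7i 21.4% and 24.9%, so these exchanged the second and the third place. Mirlet7d gave 14.1% and 14.96%. The 5 remaining genes gave small shares of the singly assigned reads, from Mir98 at 1.51% and 1.56% down to Mirlet7f-1 at 0.0756% and 0.0767%.

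**Figure D3:**
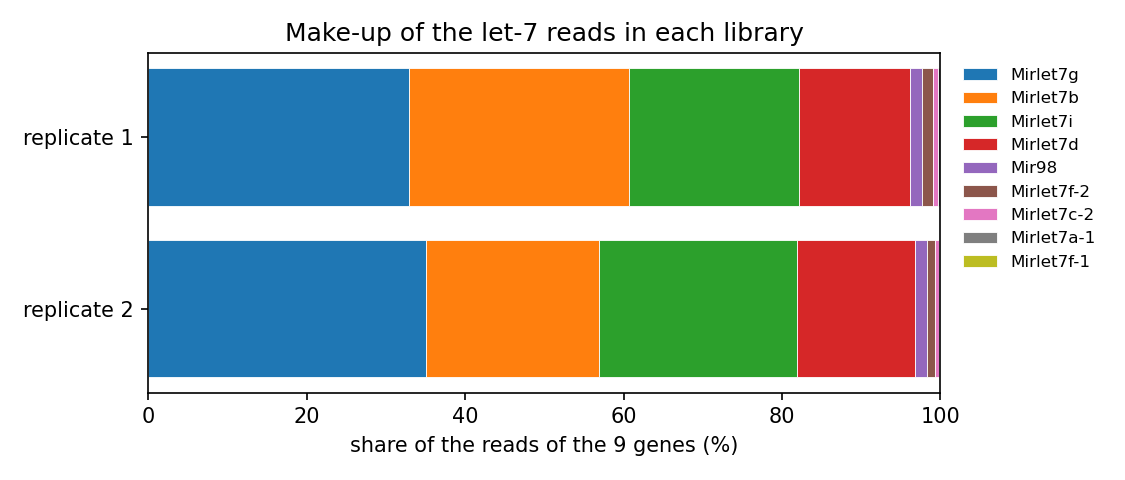
Share of the singly assigned reads of the 9 genes (horizontal axis, percent, from 0) that each gene gave. Replicate 1 is the upper bar and replicate 2 the lower bar. Reads that fit several loci are outside the shares. Mirlet7b narrows from 27.7% to 21.9% while Mirlet7i widens from 21.4% to 24.9%.

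The only difference that the design allows to be tested is that between the libraries. The counts of 516 genes were compared by a two-sided exact binomial test, given library sizes scaled by TMM, a trimmed mean of ratios. These were the genes with 10 or more counts together, and p-values were adjusted over all of them (Benjamini-Hochberg). It compares these libraries and their counting error, not animals or conditions. Summed over the 9 genes, replicate 2 was higher by a log2 ratio of 0.37 (exact 95% interval 0.36 to 0.37). Of the 9 genes 6 were called higher in replicate 2 and 2 lower at an adjusted p under 0.05. Among all 516 genes 57.9% were called, 27.5% higher and 30.4% lower. Among the 309 genes with 100 or more counts together 79.9% were called in either direction, so a call at this depth is common. With p-values adjusted over these 309 alone, 39.2% were called higher and 42.7% lower. All 9 let-7 genes are among the 309. The median log2 ratio of the 9 genes was 0.39, against -0.04 over all genes tested.

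By size the differences were not larger than those of other genes. The median absolute log2 ratio of the 309 well-counted genes was 0.46, and 1 of the 9 let-7 genes, Mirlet7i, exceeded it, at 0.59 (0.58 to 0.60). None of the 9 reached an absolute log2 ratio of 1, as 19.4% of all genes tested did with a call. Mirlet7g and Mirlet7d both had a log2 ratio of 0.46 (0.45 to 0.46 and 0.45 to 0.47), and Mir98 had 0.41 (0.38 to 0.44). Mirlet7f-1 stood at 0.39 (0.25 to 0.53) on its lower counts. Mirlet7b was called at a log2 ratio of 0.03 (0.02 to 0.03), a direction that turned with scaling by total counts (-0.014) and with unstranded counts (-0.0049).

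The genes called lower in replicate 2 both had a shared sequence. Mirlet7f-2 had a log2 ratio of -0.23 (-0.26 to -0.19) and Mirlet7c-2 of -0.10 (-0.15 to -0.05), the latter at an adjusted p of 0.000124 (exact binomial). Mirlet7a-1 was not called, with a log2 ratio of 0.01 (-0.08 to 0.10) at an adjusted p of 0.910 (exact binomial). That estimate turned to -0.030 with total counts and -0.021 with unstranded counts, and the interval leaves room for either sign. By class, 5 of 5 own-sequence genes were called higher, Mirlet7b with the reservation just given. Of the 4 shared-sequence genes 1 was called higher and 2 lower. Over all 516 genes tested 27.5% were called higher and 30.4% lower, and of the 309 well-counted genes 79.9% were called. Adjusted over the well-counted genes alone, 39.2% were called higher and 42.7% lower. The 3 let-7 genes of the miR-99/miR-125 clusters were all called higher, Mirlet7e with its own sequence and Mirlet7a-2 and Mirlet7c-1 with a shared one. Direction was therefore not uniform among let-7 genes with a shared sequence.

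Within clusters the change of a ratio between libraries needs no scaling, and 5 such pairs were compared by exact 95% intervals. Mir98 over Mirlet7f-2 shifted most, by 0.64 on the log2 scale (0.60 to 0.69) towards Mir98 in replicate 2. Mirlet7d over Mirlet7a-1 shifted by 0.45 (0.36 to 0.54) towards Mirlet7d, and Mirlet7a-1 over Mirlet7f-1 by -0.38 (-0.55 to -0.21), towards Mirlet7f-1. Mirlet7b over Mirlet7c-2 shifted by 0.13 (0.08 to 0.17). Mirlet7d over Mirlet7f-1 gave 0.07 (-0.07 to 0.21), a range that includes no change. Neighbouring hairpins thus did not all keep their ratio of singly assigned reads between the libraries beyond counting error. Each of the 5 pairs holds a gene with a shared sequence, and reads that fit several loci are outside its count. Multi-mapped reads were 42.8% and 39.9% of all reads in replicates 1 and 2, and their part in these shifts was not tested.

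In the rest of the family and its cluster partners, a list of 9 genes, 5 were called higher and 4 lower. All of them had 100 or more counts together, a depth at which 79.9% of 309 genes were called. Over all 516 genes tested 27.5% were called higher and 30.4% lower. Adjusted over the 309 genes alone, 39.2% were called higher and 42.7% lower. The 3 let-7 genes were all among those higher, with log2 ratios of 0.23 (0.22 to 0.24) for Mirlet7e, 0.46 (0.37 to 0.55) for Mirlet7c-1 and 0.94 (0.78 to 1.09) for Mirlet7a-2. The partners split. Mir99b (0.74) and Mir125b-1 (0.68) were higher, while Mir99a (-0.71), Mir100 (-0.56), Mir125a (-0.77) and Mir125b-2 (-0.75) were lower. Mir125a and Mir99b, neighbours of Mirlet7e, thus went opposite ways. These ratios too are of singly assigned reads, with reads that fit several loci outside the counts.

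**Figure D4:**
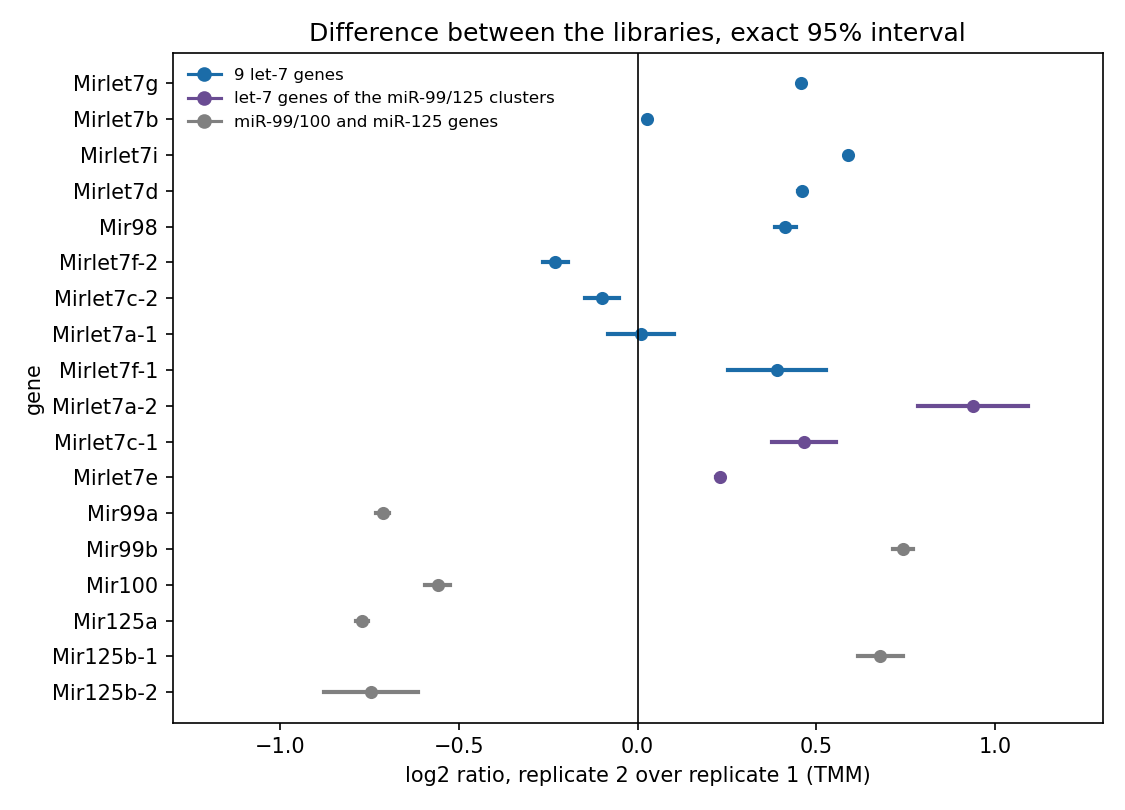
log2 ratio of replicate 2 over replicate 1 (horizontal axis, TMM scaling) with exact 95% intervals for the 9 let-7 genes, the 3 let-7 genes of the miR-99/miR-125 clusters and 6 partner genes, intervals narrower than the points being hidden by them. Mirlet7i has the highest value of the 9 at 0.59 and Mirlet7f-2 the lowest at -0.23. Mirlet7b lies just right of the zero line, on the other side of it with total or unstranded counts.

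Other measures moved between the same libraries, and their part in the let-7 differences was not tested. Of all 516 genes tested 27.5% were called higher and 30.4% lower. At 100 or more counts together 79.9% of 309 genes were called, so a call of a marker is common. The 4 neuronal markers had 1 called higher and 3 lower, and both oligodendrocyte markers were called lower (5092 and 3534 CPM summed). The endothelial marker Mir126a was called lower at a log2 ratio of only -0.04 (-0.06 to -0.02). The median of all genes tested was also -0.04. Both red-cell markers and Mir122 of liver were called higher. The mural markers had 1 called higher and 1 lower, with sums of 5178 and 7691 CPM, and the 3 markers of leukocytes and microglia 1 higher and 2 lower, with sums of 2123 and 1950 CPM. Of the 5 epithelial markers 4 were called higher and 1 lower, with Mir141 at 0 in a library, and of the 3 muscle markers 1 was called lower. Multi-mapped reads were 42.8% and 39.9% of all reads, and the reads of the 9 genes 9.05% and 10.99%. Fewer cells of a type and less RNA per cell cannot be told apart in such tissue libraries.

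Over 2 libraries the likeness of a gene to the let-7 sum can be measured only by its log2 ratio. Among 91 genes outside the let-7 family with a mean of 1000 CPM or more, the 3 nearest were Mir341 at 0.38, Mir1839 at 0.38 and Mir383 at 0.35, against 0.37 for the sum. Their mean levels were 1565 ± 259, 1779 ± 295 and 6144 ± 934 CPM (SD, n = 2).

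The GGAG tetranucleotide was looked for between the 2 arms of each hairpin, on the RNA strand alone. It was present in 6 of the 9 genes and absent from Mirlet7b, Mir98 and Mirlet7c-2. Hairpins of the most abundant gene of either kind are printed, with GGAG in capitals.
Mirlet7g: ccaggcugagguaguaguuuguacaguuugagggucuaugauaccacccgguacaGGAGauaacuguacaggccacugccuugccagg
Mirlet7b: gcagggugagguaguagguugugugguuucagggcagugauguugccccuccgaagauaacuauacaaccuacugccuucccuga

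All 3 let-7 genes of the miR-99/miR-125 clusters held the motif between their arms. Among 29 other RefSeq hairpins whose stretch between the arms had 26 to 36 bases, the range of the 9 genes, 6 held GGAG (20.7%). Mean levels ranged from 217 to 96857 CPM with the motif and from 1693 to 69527 CPM without it, so the ranges overlapped. The match describes letters only.

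Ignoring strand removed all counts of a single member. Counts on the opposite strand came to 8 and 6 over all 9 genes, 4 and 4 at Mirlet7b and 4 and 2 at Mirlet7f-1. For 7 of the 9 genes the unstranded count equalled the own-strand count exactly. Mirlet7f-1 had 814 and 973 own-strand counts and 0 in both libraries when strand was ignored, as Gm24111 covers the same bases on the other strand. Mirlet7e, also covered by an opposite-strand microRNA gene, likewise went from 129360 and 138441 counts to 0.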

How the data were processed

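MicroRNA libraries of 1 group, treated as coming from 2 distinct mice despite a shared donor identifier, were analysed from 1 count table each. The deposited values are whole-number counts per microRNA gene, not normalized, with reads mapped to mm10 and GENCODE M21, per the text files deposited beside the tables. Aligner, counter and trimming: not given in the sources used here. No header names the columns, which were read from the layout as unstranded, own-strand and opposite-strand counts. Multi-mapped, unmapped (16.7% and 20.9% of reads) and unassigned reads (4.56% and 4.39%) belong to no gene and entered neither totals nor tests. Own-strand counts were scaled to CPM.

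Effective library sizes came from TMM (edgeR 4.0.16, R 4.3.3). Binomial tests, Benjamini-Hochberg adjustment over all 516 genes tested and Clopper-Pearson intervals at 95% used SciPy 1.17.1, and the scripts were tested on simulated data. Since 1 group leaves no contrast, no count model was fitted. By a chi-square comparison of the gene counts (336636, 515 degrees of freedom) the tables differ beyond sampling noise. Sequences came from the RefSeq table (GRCm38.p6), and opposite-strand genes over a hairpin were not counted as other loci. Named were all 9 genes, the rest of the let-7 family and its partners, microRNA genes within 10 kb, and the 3 genes nearest in log2 ratio. Members and lists were chosen with earlier results of these data known.

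As alternatives, scaling used DESeq2 1.42.0 size factors or plain totals, beside other count minimums, unstranded counts, other totals, hairpin length, other definitions of a shared sequence, and each library alone.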

Additional observations from a re-analysis of the deposited data

Results flagged for a closer look

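Some reads were outside the own-strand counts of the 9 let-7 genes. The multi-mapped fraction was 42.8% for replicate 1 and 39.9% for replicate 2, both of all reads. On the strand opposite to the 9 let-7 genes, 8 and 6 reads were counted. Of these, 4 and 2 lay at Mirlet7f-1, the same numbers as the own-strand counts of Gm24111.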

How the results depend on the processing

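With DESeq2 size factors, total counts, either other count minimum and unstranded counts, the summed log2 ratio stayed above 0 with an interval that excluded 0. Under these 4 to 6 of the let-7 genes were called higher and 2 to 3 lower. With unstranded counts Mirlet7f-1, at 0, was not tested. Of all genes tested, 18.0% (no minimum) to 39.2% (100 or more counts) were called higher. The share called lower ran from 18.9% to 42.7% at the same settings. Mirlet7b turned to -0.014 with total counts and -0.0049 with unstranded counts, and Mirlet7a-1 to -0.030 and -0.021. As a share of all reads the 9 genes had 10.02%, by construction of a larger total. With unstranded counts the median of shared-sequence genes was 1157 CPM, Mirlet7f-1 being at 0. With sharing defined on both arms the median of own-sequence genes was 41342 CPM, and the log2 of the lowest own-sequence over the highest shared-sequence level turned from 0.47 to -2.97. With all 12 let-7 genes the medians were 53856 and 472 CPM. Without replicate 1 or 2 the share of the 9 genes ran from 25.2% to 31.6%, the medians from 53928 to 69188 CPM and from 1030 to 1116 CPM, and the log2 separation from 0.14 to 0.78. A ratio between libraries cannot be had without either of them. No paired analysis was possible because there is 1 group. Depth limits Mirlet7f-1 most.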
